A study of Mus musculus with 2 samples.

Results

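Integrins are the cell surface receptors for the extracellular matrix, and laminins are the large trimeric proteins around which basement membranes are built. All genes of both families on the array were taken by name: *Itga* genes for the integrin alpha chains, *Itgb1* to *Itgb8* for the beta chains, and *Lama*, *Lamb* and *Lamc* genes for the laminin alpha, beta and gamma chains. This gave 37 of the 29924 gene names on the array, measured by 51 of 39429 probes and by 204 of 157716 spots on each array. The 37 genes were 18 integrin alpha, 8 integrin beta and 11 laminin genes. The rule for membership used gene names and no measured value. Both arrays compared ureter explants of wildtype NMRI mouse embryos at E11.5, cultured on transwell membranes for 18 h. The treated explants received 10 µM IWP-2, an inhibitor of the acyltransferase PORCN that blocks the secretion of WNT ligands, and the control explants received the solvent DMSO alone, at 2‰. Each sample was RNA from a pool of ureters, with the sex of the embryos not determined, and treated and control RNA were hybridised together on 1 two-colour array per replicate. On replicate 1 the treated RNA carried AlexaFluor647 and the control RNA AlexaFluor555, and on replicate 2 the dyes were exchanged. An explant pool holds epithelium, mesenchyme, vessels and blood cells, so that fewer cells of a type and less RNA per cell cannot be told apart.

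An integrin is a pair of 1 alpha and 1 beta chain that spans the membrane: outside, the pair binds laminin, collagen, fibronectin or related proteins, and inside, the tail of the beta chain binds talin and kindlin, which join it to actin. A laminin joins 1 alpha, 1 beta and 1 gamma chain in a cross-shaped trimer that polymerises below epithelia and around smooth muscle, vessels and nerves. In the developing urinary tract, laminin around the ureteric epithelium is bound by the *Itga3* and *Itga6* receptors, whereas *Itga8* in mesenchyme binds nephronectin in the epithelial basement membrane during kidney induction.

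Each gene was read by 60-base probes printed as 4 spots, and some probe sequences are given here because they decide what was measured. The single *Lamc3* probe is for the member that passed the test, and 30 of its bases (bases 26 to 55 of the probe) are shown with the polyadenylation hexamer AATAAA in capitals.
*Lamc3*, chr2:31801996-31802055, plus strand: tgattctgaggaAATAAAggacccttttcc
AATAAA, searched on the probe strand only, was held by 9 of the 51 member probes (17.6%) and by 4965 of all 39429 probes (12.6%). The *Itgb1* probe, which represents the beta chain shared by most integrins of epithelium and mesenchyme, bridged an intron and therefore reads spliced RNA.
*Itgb1*, chr8:131250081-131255976, plus strand: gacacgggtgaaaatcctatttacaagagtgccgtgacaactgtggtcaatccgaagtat
The 3 *Itgam* probes are shown because they gave different answers. The first 30 bases of each follow, with a run of 10 CA units in capitals.
*Itgam*, chr7:135212140-135212199, plus strand: tgttaaccagacaggtgccctctaccagtg
*Itgam*, chr7:135260275-135260334, plus strand: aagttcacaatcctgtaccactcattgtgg
*Itgam*, chr7:135261755-135261814, plus strand: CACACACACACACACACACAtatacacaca
A CA repeat of at least 8 units, on either strand, was found in 1 of 51 member probes (1.96%) and in 101 of all probes (0.256%). Coordinates are those in the array files, on mouse build mm9. No gene model of that build was used, so whether a probe lies in a coding or an untranslated exon is not stated.

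Signal was sufficient for most members. On each array, between 68.62% and 70.74% of spots in a channel were well above background and 0 spots were saturated. A gene was tested when its probe was well above background in more than 0.5 of the spots of 1 group on both arrays, which 35 of 37 members met. All 10 markers of ureteric and stromal mesenchyme and all 10 of ureteric epithelium met it as well. *Itgad* and *Itgae*, alpha chains of leukocyte integrins, were not well above background in any channel, with processed intensities from 1.26 to 2.04. Changes are given as log2 of IWP-2 over control after loess normalisation, and the mean over 2 arrays was tested with limma, adjusted over all 20119 genes by the method of Benjamini and Hochberg. The intensities quoted beside them are the scanner software's processed signals. Since probes differ in binding, intensities do not rank the levels of different genes. Sums over a marker list compare the same probes between channels and are weighted towards the brightest, and medians of control intensity describe signal only.

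In the treated explants, 1 integrin or laminin gene passed the test. *Lamc3*, the laminin gamma-3 chain, fell, and of the 35 tested members it alone passed an adjusted p of 0.05 in limma, while 0 members rose. Among all 20119 genes, 232 were lower (1.15%) and 123 were higher (0.611%), a split that became 36 lower and 7 higher when arrays were centred on their median in place of loess. At an unadjusted p under 0.05, 2 members were lower and 4 were higher, against 954 lower (4.74%) and 1745 higher (8.67%) of all genes. Of the 35 tested members, 11 were lower on both arrays, 13 were higher on both and 11 had opposite signs. The same direction on both arrays was therefore found for 24 members (68.6%), and for 56% of all genes. Of all genes, 27.5% were lower on both arrays and 28.5% were higher on both. The median of the mean log2 changes was -0.01 over the members and 0.00 over all genes. For a typical member the 95% confidence interval, which is not adjusted for the number of genes, reached 0.24 log2 units to either side of its mean. A mean beyond this size did not suffice in the adjusted test: *Itgb2*, with the highest mean of 0.48, did not pass it.

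**Figure D1:**
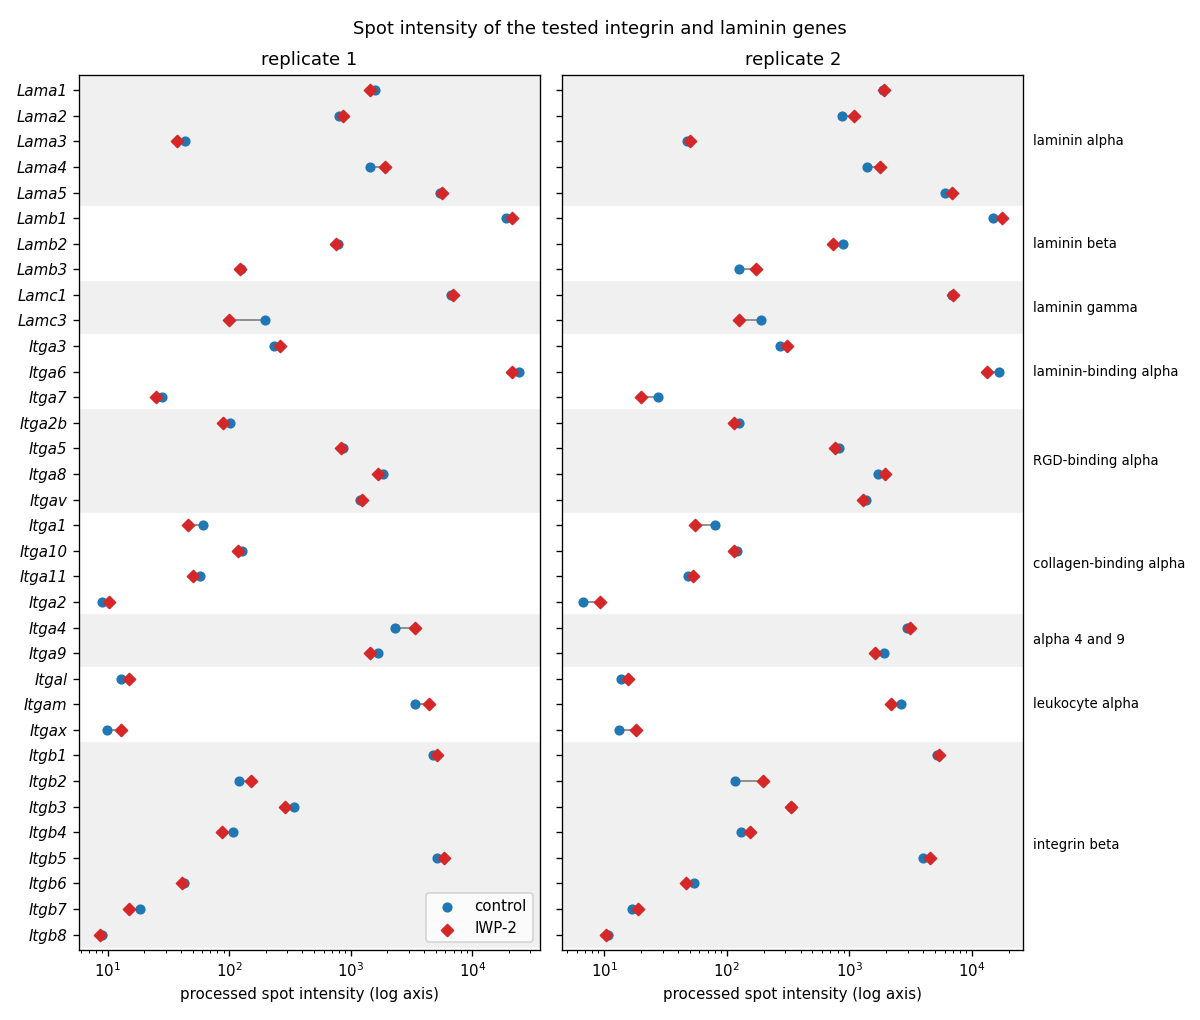
Processed spot intensity (log axis) of 34 tested integrin and laminin genes in control (blue circles) and IWP-2 (red diamonds) explants on each array, ordered by subfamily. Control and treated symbols lie close together for most genes; *Lamc3* is the gene whose treated symbol lies farthest to the left of its control on both arrays.

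*Lamc3* is a gamma chain of restricted distribution, found at nerves, in brain and retina and in reproductive tissues. Its control and treated intensities were 195 and 99 on replicate 1, and 191 and 126 on replicate 2. Treated values thus lay below both control values on both arrays. The log2 changes were -0.87 and -0.55 with a mean of -0.71 ± 0.23 (SD, n = 2), a 1.64-fold lower level with a 95% confidence interval of -0.99 to -0.43 on the log2 scale (adjusted p = 0.0424, limma). This call was close to the threshold, and it was lost with median centring in place of loess (adjusted p = 0.356), with the processed signals (adjusted p = 0.0767), without background correction (adjusted p = 0.0658), without the filter on dim probes (adjusted p = 0.0986), with a dye term in the model (adjusted p = 0.211), and in the table of processed values that was deposited for the series (adjusted p = 0.42). The model with the dye term called 0 lower and 0 higher of all 20119 genes, so its loss of the call is not particular to *Lamc3*. In the deposited table, whose values fall in coarse steps, *Itga5* passed at a log2 change of -0.14, whereas *Lamc3* did not at -0.79. The direction of *Lamc3* was the same in 9 of 9 alternative settings, but not all of these could change it. With 1 probe, the other filters and the mean over probes left its value at -0.71. Leaving out 1 array gave the value of the other, already known to be negative. *Lamc1*, the gamma chain of most laminins, stayed between 6676 and 7051 in all 4 channels, with log2 changes of 0.01 and 0.09.

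Most, but not all, markers of the cells around the epithelium were lower. Of 10 markers of ureteric and stromal mesenchyme, 4 fell (*Foxf1*, *Tbx18*, *Dcn* and *Tcf21*), 1 rose (*Meox1*) and 5 did not pass. On both arrays 7 were lower and 2 were higher, *Meox1* and *Pdgfrb*, the latter at 0.38 and 0.63. The summed intensity of this list ranged from 27670 to 28710 in the control and from 20440 to 21420 in the treated channels. *Foxf1* and *Tbx18*, transcription factors of the ureteric mesenchyme, had mean log2 changes of -1.57 and -1.03. The paper reports that both lost expression in later ureters without mesenchymal *Ctnnb1*, so their fall is not a count of cells. The receptor gene *Pdgfra* was at -0.33 and -0.05 and did not pass. Markers of Schwann cell precursors and neurons, described below, went the other way, with a median of 0.36. The part of either marker list in the *Lamc3* value was not tested.

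The 5 laminin alpha chains were all measured and none passed the test. *Lama4*, the alpha chain of vessel and smooth muscle basement membranes, had control and treated intensities of 1448 and 1918 on replicate 1, and of 1380 and 1765 on replicate 2. Both arrays gave a log2 change of 0.37, with a 95% interval of 0.13 to 0.60 (adjusted p = 0.151, limma). *Lama2*, the alpha chain of muscle and nerve laminin, read 797 and 855, then 878 and 1098, which are log2 changes of 0.10 and 0.33 with a mean of 0.22 (adjusted p = 0.481, limma). *Lama5*, the main alpha chain below mature epithelia, had a log2 change of 0.00 on replicate 1 and of 0.27 on replicate 2. *Lama1*, the alpha chain of early embryonic basement membranes, had log2 changes of -0.14 and 0.03, and *Lama3*, which pairs with *Lamb3* in an epithelial laminin, -0.14 and 0.07. No alpha chain was lower on both arrays.

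Among the 3 laminin beta chains, *Lamb1* and *Lamb2*, which replace one another in otherwise like trimers, had means of opposite sign. *Lamb1* had control and treated intensities of 18750 and 21160 on replicate 1, and of 14820 and 17670 on replicate 2. Its log2 changes of 0.23 and 0.24 gave a mean of 0.23 with a 95% interval from just under 0 to 0.47 (adjusted p = 0.374, limma). *Lamb2* had log2 changes of -0.08 and -0.25, with a mean of -0.16 and an interval of -0.41 to 0.08. *Lamb3* was at -0.02 on replicate 1 and 0.41 on replicate 2, and the arrays therefore did not give 1 direction. Over all 11 laminin genes, the median log2 change was 0.00 on replicate 1, 0.24 on replicate 2 and 0.14 in the means. Of these 11 genes, 2 were lower and 5 were higher on both arrays, against 27.5% and 28.5% of all genes. Control intensities of these genes had medians of 1448 and 1380 on the 2 arrays.

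Markers of vessels, and most of those of epithelium, had values in the direction of the positive laminin means. All 10 endothelial markers were higher on both arrays and 3 passed the test: *Sox17*, *Kdr* and *Cldn5*, with mean log2 changes of 0.90, 0.74 and 0.65. Their summed intensity was 12840 to 17420 in the control and 20430 to 24490 in the treated channels. Of 10 markers of ureteric epithelium, 6 were higher on both arrays, 1 was lower on both, 3 had opposite signs and 0 passed the test. Their median was 0.25, with sums of 53540 to 56090 in the control and 59400 to 62850 in the treated channels. *Lama3* and *Itgb4*, also chains of epithelium, had means of -0.04 and -0.03. The part of either marker list in the values of *Lama4* or *Lamb3* was not tested.

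**Figure D2:**
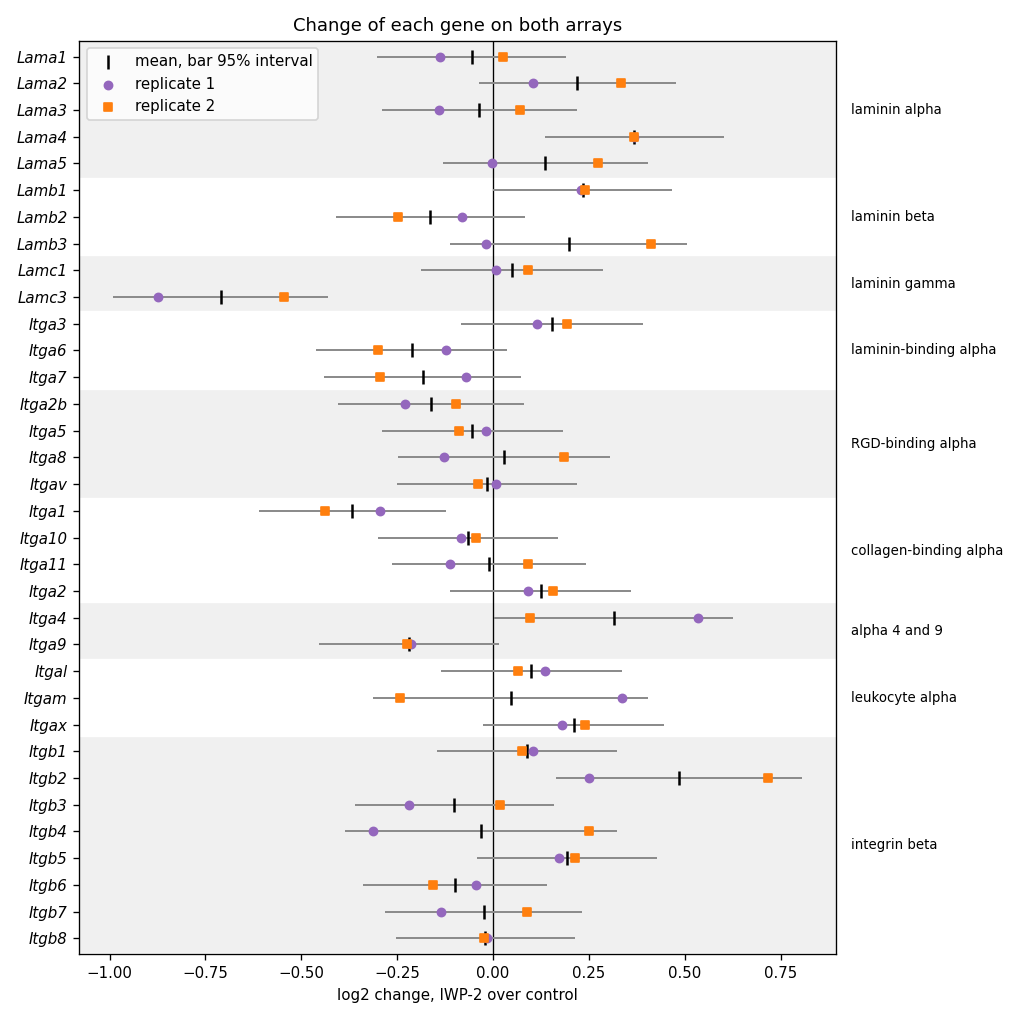
Log2 change, IWP-2 over control, of 34 tested members on replicate 1 (purple circles) and replicate 2 (orange squares), with the mean (black tick) and its 95% confidence interval from limma (grey bar). The interval of *Lamc3*, -0.99 to -0.43, lies farthest from 0, and those of most other members cross 0.

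The laminin receptors did not follow 1 direction. *Itga6*, the alpha chain of the laminin receptors of epithelial cells, had control and treated intensities of 24280 and 21220 on replicate 1, and of 16550 and 13290 on replicate 2. The log2 changes were -0.12 and -0.30, with a mean of -0.21 and a 95% interval of -0.46 to 0.04 (adjusted p = 0.48, limma). *Itga6* was read by a second probe on another annotated transcript, with control intensities of 951 and 1110 and with log2 changes of -0.04 and 0.09. The first 30 bases of the retained and of the second probe show that they are different stretches of the locus.
*Itga6*, retained, chr2:71690633-71690692, plus strand: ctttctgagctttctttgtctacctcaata
*Itga6*, second, chr2:71694756-71694815, plus strand: gagaatgagaacctgggaggtcttgttgtt
*Itga7*, the laminin receptor chain of muscle, read between 19.9 and 27.9 in the 4 channels and had log2 changes of -0.07 and -0.30. Of 7 markers of striated muscle, 2 were lower and 2 higher on both arrays, and 3 had opposite signs. *Myl1* alone passed, as higher, with a mean of 1.18 (adjusted p = 0.013, limma). The part of this list in the *Itga7* value was not tested. *Itga3*, the alpha chain of the second epithelial laminin receptor, was at 0.12 and 0.19. *Itgb4*, which pairs with *Itga6* in hemidesmosomes, read 107 and 87 on replicate 1 and 131 and 155 on replicate 2, so that its log2 changes of -0.31 and 0.25 cancelled to a mean of -0.03 with an interval of -0.39 to 0.32.

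The 4 collagen-binding alpha chains held the second lowest value of all members. *Itga1*, a receptor chain for basement membrane collagen on mesenchymal and smooth muscle cells, had control and treated intensities of 61 and 46 on replicate 1, and of 80 and 56 on replicate 2. The log2 changes of -0.29 and -0.44 gave a mean of -0.37 ± 0.10 (SD, n = 2) and a 95% interval of -0.61 to -0.12 (adjusted p = 0.17, limma). A second *Itga1* probe, nearer to the start of the transcript, gave -0.06 and -0.31. The retained probe bridged an intron and is shown whole.
*Itga1*, chr13:115756765-115758419, minus strand: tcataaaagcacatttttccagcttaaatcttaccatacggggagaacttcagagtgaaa
*Itga2*, the neighbour of *Itga1* with 0 protein-coding genes between them in RefSeq, encodes a collagen receptor chain of epithelium and platelets. It read between 6.77 and 10.3 and had log2 changes of 0.09 and 0.16, so the values of the adjacent genes had opposite signs. *Itga10*, a collagen receptor chain of cartilage, was at -0.08 and -0.05, and *Itga11*, that of fibroblasts, at -0.11 and 0.09.

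Receptor chains for the RGD motif of fibronectin and related ligands had means between -0.16 and 0.03. *Itga8*, the receptor chain for nephronectin, had control and treated intensities of 1825 and 1684 on replicate 1, and of 1712 and 1956 on replicate 2. Its log2 changes were -0.13 and 0.18, with a mean of 0.03 and a 95% interval of -0.25 to 0.30. Its ligand gene *Npnt* read between 211 and 242 in the 4 channels and had log2 changes of 0.01 and -0.06, with an interval of -0.26 to 0.21. Markers of nephrogenic mesenchyme, in which *Itga8* is also known to be active, went both ways. Of 8, 2 were lower and 2 higher on both arrays, and 4 had opposite signs. *Meox1*, which is also in the stromal list above, passed as higher. The arrays differed in this list, with medians of 0.25 on replicate 1 and -0.37 on replicate 2. *Sall1* was at 0.29 and -1.81, and *Six2* at 1.03 and -0.38. The part of this difference in the *Itga8* value was not tested. *Itgav* and *Itga5*, the widespread fibronectin and vitronectin receptor chains, had means of -0.02 and -0.05. *Itga2b*, the fibrinogen receptor chain of platelets, was at -0.23 and -0.10, and its partner *Itgb3* at -0.22 and 0.02, while 0 of 7 markers of platelets and megakaryocytes passed the test.

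*Itga4* and *Itga9*, related chains that bind fibronectin, VCAM1 or tenascin, had means of opposite sign. *Itga4*, a receptor chain of leukocytes and neural crest cells, had control and treated intensities of 2316 and 3370 on replicate 1, and of 2936 and 3103 on replicate 2. Its log2 changes of 0.53 and 0.10 had a mean of 0.31 ± 0.31 (SD, n = 2) and a 95% interval of 0.00 to 0.63 (adjusted p = 0.367, limma), and a second, dimmer probe gave 0.27 and -0.08. *Itga9*, a chain of smooth muscle and lymphatic vessels, read 1665 and 1443, then 1907 and 1619, with log2 changes of -0.21 and -0.22 and a 95% interval of -0.45 to 0.01 (adjusted p = 0.416, limma). Of 7 markers of Schwann cell precursors and neurons, 6 were higher on both arrays and 0 passed the test, with sums of 29090 to 30020 in the control and 38570 to 41790 in the treated channels. Their part in the *Itga4* value was not tested.

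**Figure D3:**
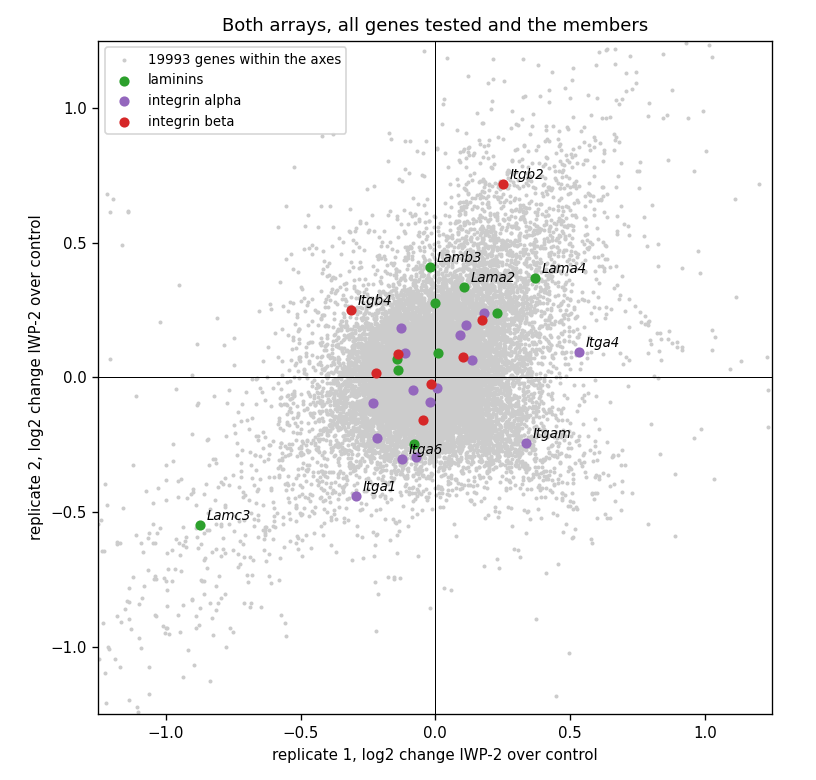
Log2 change on replicate 1 (horizontal) against replicate 2 (vertical) for the tested genes that lie within the axes (grey, 19993 of 20119) and for laminins (green), integrin alpha (purple) and integrin beta (red) genes. *Lamc3* lies alone among the members at the lower left, *Itgb2* and *Lama4* lie at the upper right, and *Itgam* and *Itgb4* are positive on 1 array and negative on the other.

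None of the integrin chains typical of leukocytes passed the test. *Itgb2*, the beta chain that all CD11 alpha chains share, had control and treated intensities of 120 and 150 on replicate 1, and of 117 and 197 on replicate 2. The log2 changes of 0.25 and 0.72 gave a mean of 0.48 ± 0.33 (SD, n = 2), the highest of the members, with a 95% interval of 0.16 to 0.80 (adjusted p = 0.168, limma). *Itgax*, the CD11c chain, read between 9.93 and 18.3 and was at 0.18 and 0.24, and *Itgal*, the CD11a chain, between 12.8 and 15.6 at 0.13 and 0.07. All 10 markers of leukocytes and macrophages were higher on both arrays and 1 passed the test, the macrophage receptor *Adgre1*, with a mean of 0.93 (adjusted p = 0.0409, limma). Their summed intensity was 9794 to 12740 in the control and 13640 to 16190 in the treated channels, and their part in the *Itgb2* value was not tested.

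*Itgam*, the CD11b chain of macrophages and neighbour of *Itgax* in the genome, was read by 3 probes. The retained probe, chosen as the brightest, is the one whose sequence opens with the CA repeat shown above. It had control and treated intensities of 3397 and 4371 on replicate 1, and of 2611 and 2173 on replicate 2, hence log2 changes of 0.33 and -0.24. The other probes read between 11.2 and 34.7. The one in the last part of the transcript gave 0.11 and 0.54, which are positive on both arrays as for *Itgb2*, and the one near its start gave -0.11 and 0.08. No direction is given for *Itgam*.

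None of the remaining beta chains passed the test. *Itgb1* had control and treated intensities of 4735 and 5117 on replicate 1, and of 5216 and 5378 on replicate 2. Its log2 changes of 0.10 and 0.07 had a mean of 0.09 and a 95% interval of -0.15 to 0.32 (adjusted p = 0.866, limma), and a second probe gave 0.25 and -0.06. *Itgb5*, a partner of *Itgav* in vitronectin binding, was at 0.17 and 0.21. *Itgb6*, the epithelial partner of *Itgav* that activates TGF-beta, was at -0.04 and -0.16, *Itgb7*, a lymphocyte chain, at -0.14 and 0.09, and *Itgb8*, a further TGF-beta activating partner of *Itgav*, at -0.02 and -0.02. The medians of the beta chains were -0.03 on replicate 1 and 0.08 on replicate 2, and those of the 16 tested alpha chains -0.04 on both arrays. Control intensities had medians of 113 and 124 for beta chains and of 181 and 200 for alpha chains on the 2 arrays.

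Probes of 1 gene did not always give 1 sign. On at least 1 array they differed in sign for *Itga4*, *Itga6*, *Itgal*, *Itgam*, *Itgb1*, *Itgb3* and *Itgb6*. The second probe of *Itgb6* gave 0.13 and -0.14, and that of *Itgb3* gave 0.09 and -0.04. Of the 37 members, 12 had several probes. Of these, 10 had another probe on the same annotated transcript, and in 9 of these 10 the retained brightest probe was the one nearer to the end of the transcript. *Lama3* was the exception. *Itga10* was read by a pair of overlapping probes shifted by a few bases, which gave means of like sign on both arrays. *Lamc3*, *Lama4* and *Itgb2* had 1 probe each, so no second probe bears on their values.

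**Figure D4:**
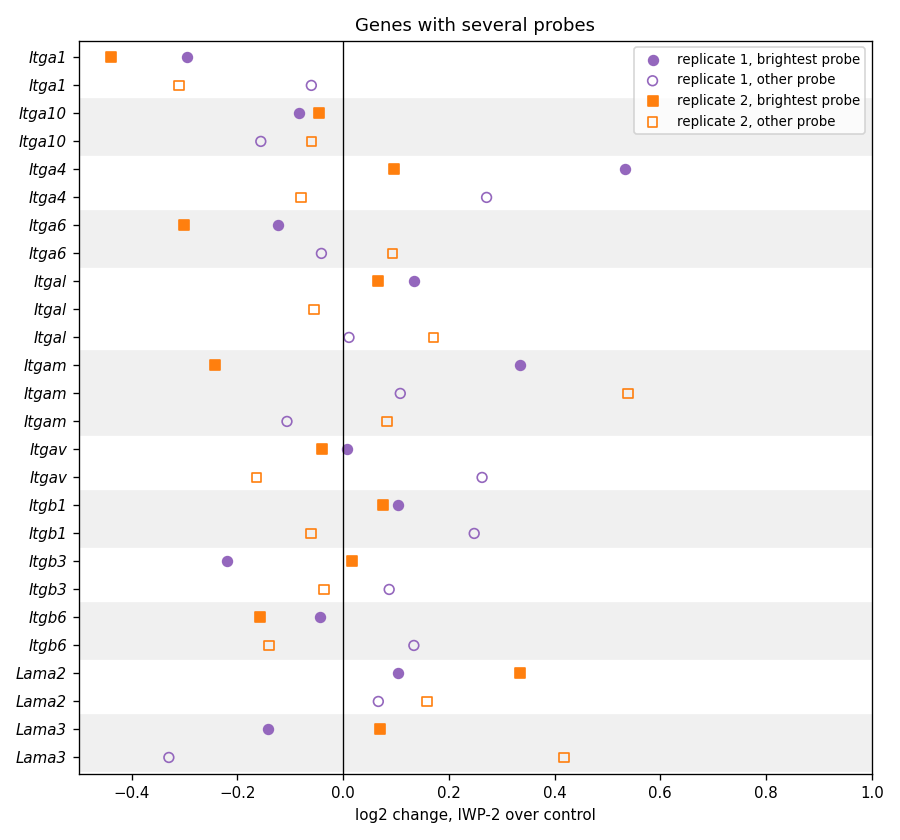
Log2 change on replicate 1 (circles) and replicate 2 (squares) of each probe of the 12 genes with several probes; filled symbols are the brightest probe measured on both arrays, which stands for the gene, and open symbols the others. The probes of *Itga1* are all negative, whereas those of *Itgam* and *Itga4* take both signs; 1 *Itgal* probe has a value on replicate 2 only.

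Genes whose products work with integrins and laminins were taken from 3 lists. Of 22 further components of basement membranes, 21 were tested, 2 fell and 0 rose. *Frem1*, a component of the matrix below embryonic epithelia, had control and treated intensities of 2357 and 1273 on replicate 1 and of 2366 and 1318 on replicate 2, with log2 changes of -0.90 and -0.82 (adjusted p = 0.014, limma). *Nid2*, nidogen-2, which links laminin to collagen IV, read 2016 and 1204, then 1983 and 1370, with log2 changes of -0.74 and -0.52 (adjusted p = 0.0463, limma). *Fras1*, which acts with *Frem1* in the same complex, was at 0.38 on both arrays and did not pass (adjusted p = 0.14, limma). The median over the list was -0.07, with 9 genes lower and 6 higher on both arrays.

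Of 29 adaptor proteins of integrin adhesions, 28 were tested and 0 passed in limma. The largest means were those of the focal adhesion kinase relative *Ptk2b* at 0.43 (adjusted p = 0.144), the talin-binding *Kank1* at 0.24 and the kinase *Src* at -0.23. *Tln1*, *Fermt2* and *Ilk*, which encode talin, kindlin-2 and integrin-linked kinase, had means of 0.05, 0.04 and 0.01. Of 21 ligands, which include *Nid2* again, 20 were tested and 1 fell. *Vcam1*, the ligand of *Itga4* integrins on vessels and mesenchyme, read 400 and 552 on replicate 1 and 299 and 553 on replicate 2, with log2 changes of 0.46 and 0.86 that missed the threshold (adjusted p = 0.0642, limma). *Icam2*, the ligand of *Itgb2* integrins on endothelium, had a mean of 0.51 (adjusted p = 0.0747, limma). Both belong to vessels as well, and the endothelial markers above were higher on both arrays; the part of these markers was not tested.

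**Figure D5:**
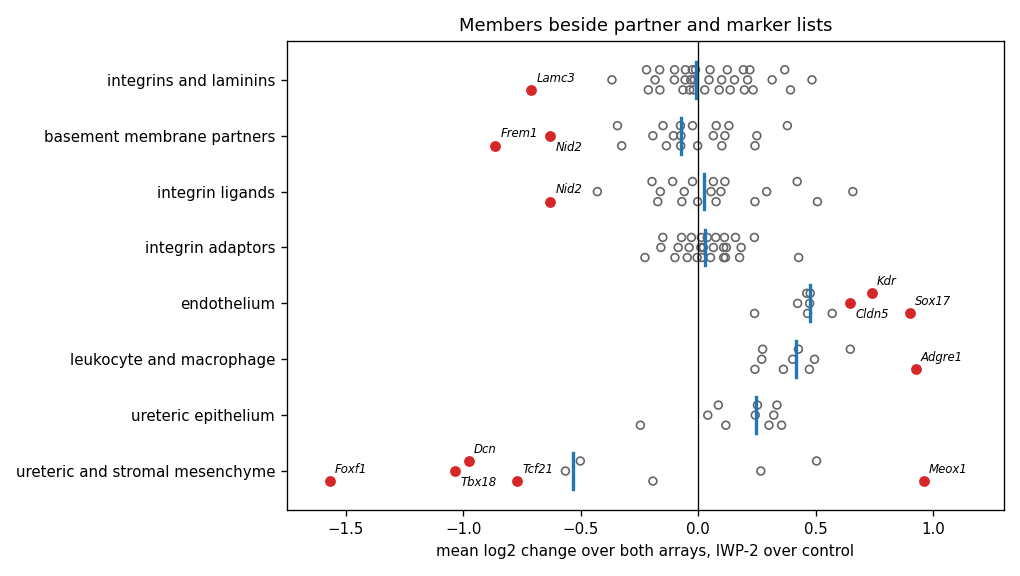
Mean log2 change over both arrays of the tested members and of the partner and marker genes, 1 circle per gene; red filled circles passed an adjusted p of 0.05 in limma and are named, and blue bars are the list medians. The members and partner lists centre near 0, at medians of -0.01, -0.07, 0.03 and 0.03, while endothelial and leukocyte markers lie to the right, with medians of 0.48 and 0.41, and mesenchymal markers to the left, at -0.53.

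The cut-offs used in the study, an intensity of 100 and a 2-fold difference, were applied to the processed intensities, asking for the intensity in at least 1 channel and for the fold in the same direction on both arrays. Of the members, 25 were bright enough for it and 0 passed, against 50 lower (0.344%) and 11 higher (0.0756%) of 14549 genes. At 1.5-fold, *Lamc3* alone among the members passed on these intensities, beside 165 of the 14549 genes (1.13%) that were lower by this measure. Its loess-normalised log2 change of -0.55 on replicate 2 is smaller than 1.5-fold.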

How the data were processed

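RNA was amplified in 1 round, labelled and hybridised to 60-base Agilent arrays (design 084956). The deposited scanner files hold spot intensity from Feature Extraction, version 12.2.0.7 per the file headers (10.7.3.1 in the submitters' processing notes). Their spot flags set the filter. A deposited table of the authors' signed fold changes, treated over control (r = 0.923 and 0.966 with the processed ratios), served as an alternative. Mean signals were background-corrected (normexp, offset 50), loess-normalised within arrays and turned to IWP-2 over control; outlier and control spots were left out, spots averaged per probe, and the brightest probe kept per gene. limma 3.58.1 (R 4.3.3) tested the mean of 2 arrays, and the steps were tested on simulated data. Nothing states whether pools were separate experiments, so p-values speak only for these 2 arrays. Each rested on 6.522 degrees of freedom, of which 1 came from the gene's own spread between the arrays. The rest came from a variance that limma pooled over all genes. Members were described, with full statistics for the 10 largest same-direction means since fewer than 10 passed; 1 member, included in counts and medians, is not reported here by name. Partner genes were named that passed or had the 3 largest means; *Tln1*, *Fermt2*, *Ilk* and *Npnt* were added for their known roles, with their values seen. Members and lists were chosen with earlier results of these data known. The number of arrays limits precision. RefSeq (GRCm38.p6) gave gene order and matched 37 of 37 names.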

Additional observations from a re-analysis of the deposited data

How the results depend on the processing

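The count of members lower in IWP-2 was 1 and became 0 with median centring, processed signals, no background correction, no filter on dim probes, the model that fits both channels and the dye, and an FDR of 0.01; the deposited series table gave 4 lower (*Itga1*, *Itga2b*, *Itga5*, *Itga9*) and 3 higher (*Itga3*, *Itgal*, *Lama4*), without *Lamc3*, in a setting that called 1322 lower and 1038 higher of all 20119 genes. In that table the same values recurred between genes: *Itga2b* and *Itga5* were both at -0.1375 and *Itga3* at 0.1375. These 3 genes passed with 1 shared adjusted p of 0.0419 (limma), whereas *Lamc3* at -0.7925 did not pass. A call there therefore did not follow the size of the change. Values in that table fall in coarse steps, so a gene in the same step on both arrays has no spread. The calls of that table, and its loss of the *Lamc3* call, are therefore not comparable with those of the other settings. With median centring the arrays' correlation over all genes was 0.00673, against 0.465 with loess. The count at 1.5-fold in the intensity and fold filter was 1 instead of 0. The integrin alpha median of -0.0138 was -0.0299 with median centring, -0.0213 with processed signals, -0.0166 without background correction, 0.00827 without the filter, 0.00266 as the mean over probes and -0.0344 in the series table. Leaving out 1 array leaves no test and gave -0.0445 to -0.0428 for alpha, -0.0301 to 0.0810 for beta and 0.00 to 0.24 for laminin medians. Calls of *Lamc3* held with the filter on both channels, the mean over probes, and the trend and robust prior. Its own value of -0.7099 was unchanged in these settings, which alter only the other genes or the variance prior. Its adjusted p of 0.0424 (limma) passes an FDR of 0.1 and fails an FDR of 0.01 by definition, so neither threshold tests the call. The sign was the same in every alternative for 21 of 35 members. Members with opposite signs on the arrays could not be among these, since leaving out 1 array gives the value of the other. The cause of the other differences between settings was not tested. No paired analysis was possible because each array is itself a ratio of 1 treated and 1 control pool and there is a single group. Over all genes, lower and higher calls numbered 36 and 7 with median centring, 171 and 75 with processed signals, 176 and 74 without background correction, 98 and 21 without the filter, 278 and 224 as the mean over probes, 290 and 226 with the trend and robust prior, 55 and 9 at an FDR of 0.01, 346 and 370 at an FDR of 0.1, and 0 and 0 in the model that fits both channels and the dye (limma; 2 members lower and 4 higher there at an unadjusted p under 0.05), against 232 and 123.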
